A study of Sus scrofa with 61 samples.

Results

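The last weeks before birth were examined in purebred Large White (LW) pigs, by setting 9 male fetuses at day 110 of gestation against 8 male fetuses at day 90. These 17 arrays were chosen by their labels alone, as every LWLW sample among the 61 of the series. The other arrays held Meishan (MS) purebreds and the reciprocal crosses LWMS and MSLW at the same ages. LW is a lean, fast-growing European breed, and MS is a Chinese breed known for piglets that survive well.

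Each array was hybridised with RNA from the longissimus muscle of 1 fetus, taken at caesarean, and carried no treatment other than age. The sows were inseminated with mixed LW and MS semen, so LW fetuses shared their litters with crossbred fetuses of the LW sow. The sow is not in the labels, so littermates entered as separate fetuses and p-values measured the spread between fetuses and not between litters. The authors hybridised 64 arrays and removed 3 at quality control. No animal was followed over time, since each fetus was sampled at 1 age.

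Skeletal muscle fibres form before birth in successive waves, and late gestation is the time when the fibres made earlier mature. Maturation is known to involve a change of contractile isoforms from embryonic and fetal to adult forms, the end of myoblast division, growth of mitochondria and the laying down of glycogen. The fetal cortisol rise near term is known to drive the maturation of several organs.

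Values below are quantile-normalized log2 intensities, on which a difference of 1 is a 2-fold change, and a change is day 110 minus day 90 with the standard error (SE) of the linear model. Where a gene had several probes, the brightest over all arrays stood for it, and the others are given as a range. A call is an adjusted p under 1%. Of 10988 named genes tested, 5475 were called (49.8%), of which 2529 were higher at day 110 (23.0% of genes tested) and 2946 lower (26.8%). The median change over all genes was 0.01, and 635 genes rose by over 1 while 947 fell by over 1. The 17 arrays lay on 8 slides, and on the 7 slides that held both ages, 4657 of 5412 called genes (86%) had the sign of the call on every slide. The ages did not overlap at all for 3009 genes (27.4%). RNA of a mixed tissue was measured, so fewer cells of a type and less RNA per cell cannot be told apart.

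The tissue label was checked first. All 15 skeletal muscle defining genes, such as ACTA1 (skeletal actin), DES (desmin) and TTN (titin), were well above background on every LW array. Of these 15 genes, 9 rose and none fell, with a median change of 0.34. PYGM, muscle glycogen phosphorylase, ranged from 12.32 to 12.66 at day 90 and from 13.22 to 14.80 at day 110, a rise of 1.35 ± 0.13 (adjusted p = 8.7e-14). TCAP, which anchors titin at the Z-disc, rose by 1.04 ± 0.07 (adjusted p = 8.1e-19). MB, the oxygen store myoglobin, rose by 1.84 ± 0.17 (adjusted p = 3.2e-14).

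Genes typical of embryonic and fetal muscle fell. Of the 5 tested, 4 were lower at day 110 and none higher, with a median change of -0.79. The list holds the contractile genes TNNT2, MYH3 and ACTC1, and also CHRNG and NCAM1, which are not contractile. ACTC1 changed by -0.17 and was not called. TNNT2, the cardiac troponin T that fetal skeletal muscle also makes, ranged from 12.55 to 13.23 with a median of 13.03 at day 90, and from 9.39 to 11.07 with a median of 10.26 at day 110. The ages were far apart and it fell by 2.70 ± 0.18 on the log2 scale (adjusted p = 2.5e-19). MYH3, embryonic myosin heavy chain, ranged from 17.72 to 18.06 with a median of 17.91 at day 90, and from 14.90 to 17.25 with a median of 16.84 at day 110. It fell by 1.31 ± 0.21 (adjusted p = 2.0e-07), and the day 110 fetuses were spread over a wide range where the day 90 fetuses were close together. CHRNG, the fetal gamma subunit of the acetylcholine receptor, ranged from 6.22 to 7.17 at day 90 and from 5.52 to 6.35 at day 110, so the ages overlapped slightly, and it fell by 0.79 ± 0.20 (adjusted p = 6.4e-04). NCAM1, a neural adhesion molecule of young fibres, fell by 0.46 ± 0.13 on its brightest probe (adjusted p = 1.9e-03) and by 1.56 to 1.58 on the 3 others, although the brightest probe lost the call under 75th percentile scaling (change -0.29, adjusted p = 0.058).

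Adult isoforms went the other way. Among adult fast isoforms 7 of 12 rose and none fell, with a median of 0.38, and among slow isoforms 8 of 12 rose and none fell, with a median of 0.49. MYH4, the myosin of the fastest fibres (type IIb), ranged from 13.21 to 15.30 with a median of 14.18 at day 90, and from 15.53 to 16.59 with a median of 16.22 at day 110. MYH1, the IIx myosin, ranged from 15.31 to 16.48 with a median of 15.90 at day 90, and from 17.48 to 17.86 with a median of 17.67 at day 110. Every day 110 fetus was above every day 90 fetus for both, with rises of 1.85 ± 0.19 for MYH4 (adjusted p = 1.8e-12) and 1.82 ± 0.13 for MYH1 (adjusted p = 2.1e-18). MYH2, the IIa myosin, moved little on its brightest probe, with overlapping ages and a rise of 0.19 ± 0.06 (adjusted p = 6.0e-03). That rise was no longer called without day 110 replicate 9 (adjusted p = 0.0159), without day 90 replicate 8 (adjusted p = 0.0202) or with the LW arrays alone (adjusted p = 0.027). MYH7, the slow myosin, ranged from 17.31 to 17.73 at day 90 and from 17.72 to 18.09 at day 110, a rise of 0.31 ± 0.05 (adjusted p = 2.2e-07).

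The probes of 1 adult myosin did not move alike. The 7 other MYH1 probes changed by 0.09 to 2.49, the 5 other MYH2 probes rose by 0.32 to 2.73, and the 8 other MYH4 probes changed by -1.25 to 2.35, with 6 called up and 2 called down. Adult myosin genes are known to be very alike in sequence, and the array's own 60-base probes hold examples of shared runs. The 4 lines below give the brightest probes of MYH1 and MYH2, followed by the MYH1 probe with the smallest change and the MYH2 probe that shares the longest run with it. They are written 5′ to 3′ as on the array, with capitals for the longest run of bases common to the pair.
MYH1, brightest probe: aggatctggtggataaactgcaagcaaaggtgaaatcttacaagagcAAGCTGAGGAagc
MYH2, brightest probe: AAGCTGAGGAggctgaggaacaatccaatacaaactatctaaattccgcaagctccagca
MYH1, probe with the smallest change: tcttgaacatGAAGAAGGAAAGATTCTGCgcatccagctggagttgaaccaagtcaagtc
MYH2, its closest probe: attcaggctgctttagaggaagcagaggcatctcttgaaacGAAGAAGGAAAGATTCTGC
The brightest probes share 10 bases, and they changed by 1.82 ± 0.13 for MYH1 and 0.19 ± 0.06 for MYH2. The second pair shares 19 bases, and it changed by 0.09 ± 0.09 for MYH1 (adjusted p = 0.39) and 0.32 ± 0.09 for MYH2 (adjusted p = 1.9e-03). In each pair the run lies at a different place in the MYH1 and the MYH2 probe, so its length does not measure how alike the genes are. Whether a probe also bound RNA of another chain was not tested, so the size of each adult myosin change is uncertain.

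**Figure D1:**
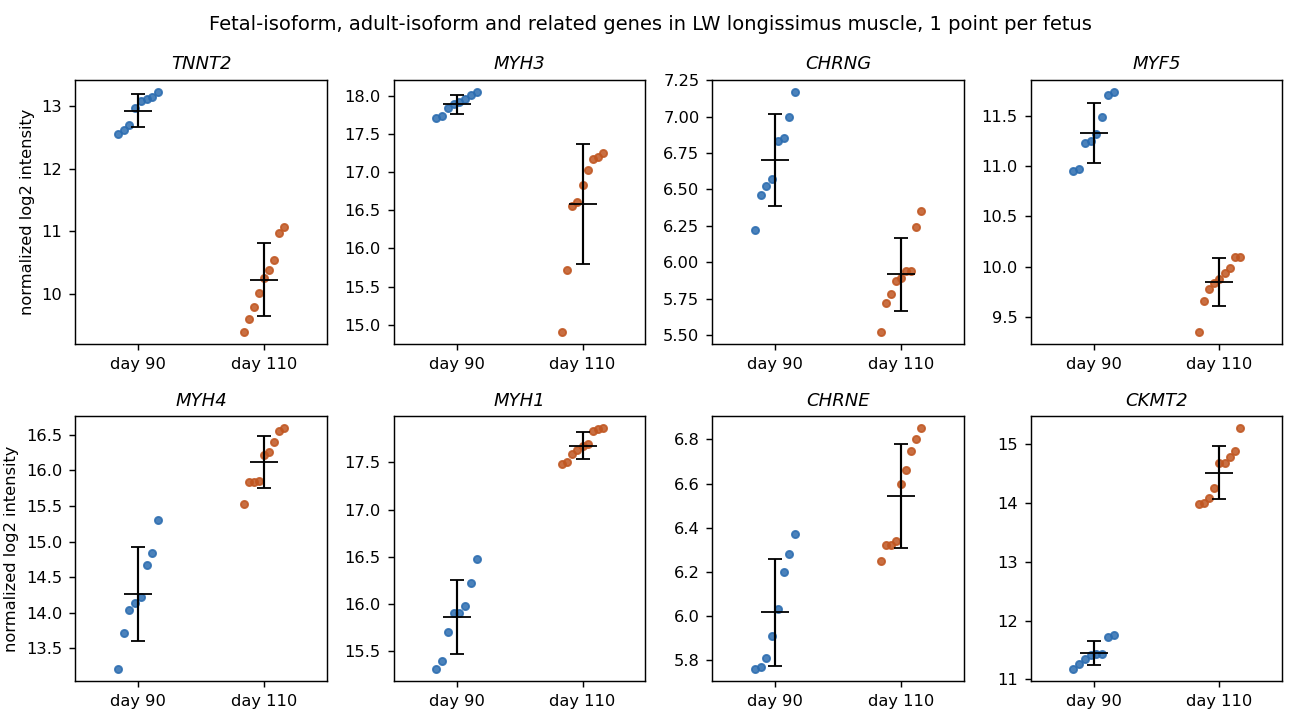
Normalized log2 intensity (vertical axis, scaled for each gene) in each LW fetus at day 90 (blue, 8 fetuses) and day 110 (orange, 9 fetuses), with black bars for the mean ± SD. The fetal genes TNNT2, MYH3 and CHRNG and the myoblast factor MYF5 are lower at day 110, and MYH4, MYH1, the adult receptor subunit CHRNE and the mitochondrial creatine kinase CKMT2 are higher, with slight overlap for CHRNG and CHRNE.

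Other parts of the contractile machinery rose with the adult myosins. ANKRD2, a stretch-responsive protein of slow fibres, ranged from 12.77 to 13.32 at day 90 and from 14.54 to 15.66 at day 110, a rise of 1.94 ± 0.14 (adjusted p = 8.0e-18). MYOZ2, a Z-disc protein of slow fibres, rose by 1.35 ± 0.10 (adjusted p = 1.6e-17), and its 12 other probes rose by 1.32 to 1.99. TPM3, slow tropomyosin, rose by 0.87 ± 0.08 (adjusted p = 1.6e-14), but its 7 other probes ran from -1.22 to 1.21, with 4 called up and 3 called down. Of 20 sarcomere scaffold genes, 12 rose and 1 fell, with a median of 0.44, and they were led by PDLIM3 at 1.39 ± 0.08 (adjusted p = 3.8e-21), SYNPO2 at 1.36 ± 0.10 (adjusted p = 2.8e-18) and LMOD2, which lengthens thin filaments, at 1.06 ± 0.19 (adjusted p = 1.9e-06).

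Calcium handling and excitation genes were also mostly higher. Of 21 calcium handling genes, 11 rose and 2 fell, with a median of 0.43. ATP2A1, the fast calcium pump of the sarcoplasmic reticulum, ranged from 16.04 to 16.74 at day 90 and from 17.71 to 18.03 at day 110, a rise of 1.29 ± 0.08 (adjusted p = 1.5e-21), while its 5 other probes ran from -1.11 to 5.44. CASQ1, which stores calcium there, rose by 0.77 ± 0.10 (adjusted p = 5.0e-10). PLN, phospholamban, the brake on the slow calcium pump, rose by 1.60 ± 0.12 (adjusted p = 8.9e-17) and by 1.65 to 2.48 on 6 other probes. RYR3, a calcium release channel of young muscle, ranged from 7.54 to 7.82 at day 90 and from 4.73 to 5.99 at day 110, and fell by 2.32 ± 0.16 (adjusted p = 2.1e-19), although its other probe changed by 0.34 and was not called.

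Of 15 membrane channels and pumps 11 rose and 2 fell, with a median of 0.64. ATP1B1, a beta subunit of the sodium pump, rose by 1.93 ± 0.11 (adjusted p = 2.0e-22). At the nerve contact, 5 of 10 neuromuscular junction genes fell and 1 rose, with a median of -0.20. CHRNE, the adult receptor subunit that takes the place of CHRNG, ranged from 5.76 to 6.37 at day 90 and from 6.25 to 6.85 at day 110, a rise of 0.53 ± 0.16 (adjusted p = 5.4e-03). It was the reverse of CHRNG in direction, but the call was lost under 75th percentile scaling (adjusted p = 0.0167), normexp correction (adjusted p = 0.0192), the median signal (adjusted p = 0.01) and without day 110 replicate 9 (adjusted p = 0.0116). UTRN, utrophin, the fetal counterpart of dystrophin, fell by 0.59 ± 0.07 (adjusted p = 3.5e-10).

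Cell division genes showed the deepest fall of any list. Of 33 mitosis genes tested, 31 fell and none rose, with a median of -2.77. The mean of the 33 genes lay between 8.773 and 9.021 in the day 90 fetuses and between 5.77 and 6.967 in the day 110 fetuses. Day 90 fetuses were nearly alike, with an SD of 0.077, where the day 110 fetuses had an SD of 0.383. Of the 33 genes, 20 were well above background on every array of the series. The part of dim signals in the spread at day 110 was not tested. UBE2C, which tags mitotic cyclins for destruction, ranged from 10.93 to 11.65 at day 90 and from 6.84 to 8.63 at day 110, and fell by 3.46 ± 0.21 (adjusted p = 3.7e-21). CDC20, an activator of the ubiquitin ligase it works with, fell by 3.44 ± 0.30 (adjusted p = 3.8e-15) and was well above background on all 8 day 90 arrays but on 6 of 9 at day 110. KIF23, a kinesin of the dividing cell's midbody, fell by 3.41 ± 0.33 (adjusted p = 1.3e-13). CDK1, the kinase that starts mitosis, ranged from 10.02 to 10.52 at day 90 and from 5.10 to 7.70 at day 110, and TOP2A, which untangles chromosomes, from 11.24 to 11.83 and from 6.63 to 9.02. CDK1 fell by 3.38 ± 0.26 (adjusted p = 7.3e-17) and TOP2A fell by 3.37 ± 0.24 (adjusted p = 1.2e-18).

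DNA replication genes followed, with 15 of 19 lower and 1 higher and a median of -0.89. RRM2, the S-phase subunit that makes DNA building blocks, ranged from 9.09 to 9.71 at day 90 and from 5.08 to 6.89 at day 110, and fell by 3.39 ± 0.20 (adjusted p = 2.6e-21). The replication helicase subunits MCM2 and MCM3 fell by 2.85 ± 0.19 (adjusted p = 3.7e-19) and 2.73 ± 0.30 (adjusted p = 9.0e-12). Of 20 genes of G1 and cell cycle exit 9 fell and 3 rose, with a median of -0.28. E2F8, an S-phase repressor, fell by 3.39 ± 0.27 (adjusted p = 3.3e-16) and was well above background on 4 of 9 day 110 arrays. CCND2, a cyclin of proliferating myoblasts, ranged from 14.64 to 15.13 at day 90 and from 12.57 to 13.11 at day 110, and fell by 2.09 ± 0.10 (adjusted p = 8.2e-25), and its partner CDK6 fell by 1.25 ± 0.08 (adjusted p = 8.6e-21). BTG2, which slows division, rose by 1.27 ± 0.27 (adjusted p = 6.3e-05) with overlapping ages.

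Myogenic regulators were divided, with 10 of 24 lower, 4 higher and a median of -0.24. MYF5, a determination factor of myoblasts, had a median of 11.28 at day 90 and 9.88 at day 110, with every day 110 fetus below every day 90 fetus, and fell by 1.48 ± 0.15 (adjusted p = 2.5e-12). MYMK, myomaker, needed for myoblast fusion, ranged from 8.66 to 9.38 and from 7.28 to 8.32, and fell by 1.16 ± 0.21 (adjusted p = 2.6e-06). MEF2C, a partner of the myogenic factors, changed by -1.17 ± 0.13 (adjusted p = 9.2e-12), TCF4 by -1.07 ± 0.07 (adjusted p = 1.1e-18) and the differentiation factor MYOG by -0.78 ± 0.14 (adjusted p = 3.6e-06), all lower at day 110. MEF2D rose by 1.21 ± 0.21 (adjusted p = 2.1e-06), with overlapping ages and a probe well above background on 7 of 8 day 90 arrays. PAX7, the mark of muscle stem cells, which was picked after its values were seen, went against MYF5: it ranged from 7.41 to 7.99 at day 90 and from 7.56 to 9.09 at day 110, a rise of 0.56 ± 0.18 (adjusted p = 8.2e-03) that was not called under 7 of the other settings. Notch signals hold myoblasts back from differentiation. In the Notch pathway list 7 of 14 genes fell and none rose, with a median of -0.39, and whether Notch signalling itself changed was not tested. HES6, a relative of the Notch target genes, fell by 1.45 ± 0.14 (adjusted p = 9.2e-14), the atypical ligand DLK1 by 1.16 ± 0.22 (adjusted p = 8.5e-06) and HEY2, a Notch target, by 0.86 ± 0.14 (adjusted p = 4.8e-07).

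Connective tissue genes were lower at day 110. Of 22 collagen chains, 18 were lower at day 110 and none higher, with a median of -1.22. The mean of the 22 chains lay between 12.614 and 12.933 at day 90 and between 11.297 and 11.901 at day 110. COL1A2, a chain of the main fibrillar collagen, ranged from 16.59 to 17.10 with a median of 16.78 at day 90, and from 14.64 to 15.56 with a median of 15.22 at day 110. All 9 day 110 fetuses were below the day 90 range, and it fell by 1.59 ± 0.12 (adjusted p = 9.9e-17), with its 4 other probes between -1.51 and -1.26. COL12A1, which coats collagen fibrils, fell by 2.45 ± 0.12 (adjusted p = 5.3e-25). Within this list COL8A2 had the largest change and fell by 2.55 ± 0.18 (adjusted p = 1.1e-18), and calls were also made for COL21A1 (change -2.47 ± 0.12), COL11A1 (change -2.12 ± 0.21) and COL27A1 (change -1.59 ± 0.13).

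Matrix glycoproteins and proteoglycans fell for 19 of 29 genes and rose for none, with a median of -0.68. POSTN, periostin, a matrix protein of active fibroblasts, ranged from 15.32 to 15.80 with a median of 15.67 at day 90, and from 11.25 to 13.35 with a median of 12.81 at day 110. It fell by 3.10 ± 0.19 (adjusted p = 5.8e-21), and its 8 other probes lay between -3.09 and -2.74. TNC, tenascin C, fell by 2.81 ± 0.18 (adjusted p = 1.5e-20) and VCAN, versican, by 2.49 ± 0.11 (adjusted p = 6.2e-27). Of 22 matrix enzymes 11 fell and 2 rose, with a median of -0.42, among them the proteases MMP14 and MMP2, which fell by 1.36 ± 0.12 (adjusted p = 2.0e-14) and 1.36 ± 0.08 (adjusted p = 2.0e-22), and the collagen chaperone SERPINH1, which fell by 1.35 ± 0.12 (adjusted p = 3.1e-15).

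Markers of other cell types moved in part over the same interval, in which 23.0% of all genes rose and 26.8% fell. Of 12 fibroblast markers 9 fell and 1 rose, with a median of -1.01, and their summed signal ran from 326250 to 408410 at day 90 and from 129530 to 198820 at day 110. THY1, CD34 and DPP4 fell, and TWIST1 rose, but COL1A1, COL3A1, DCN, LUM and DLK1 of this list also belong to the matrix and Notch lists above. Cartilage and bone markers fell in 6 of 6, led by COL2A1, and their sum went from between 9714 and 15396 to between 4122.8 and 6738.7. Macrophage markers fell in 9 of 12, with a sum of 11580 to 15468 at day 90 and 5039.8 to 9627.4 at day 110. Endothelial markers fell in 6 of 12 and rose in 2, with a sum of 61172 to 74103 and then 32193 to 43384. All 12 fibroblast markers tested were well above background on every LW array, and so were 10 of the 12 macrophage markers other than CD68 and LYZ at day 90. Satellite cell markers fell in 4 of 7 and rose in 2, with a sum of 19888 to 24503 and then 11746 to 15348. Smooth muscle and pericyte markers rose in 3 of 9 and fell in 4, with a sum of 171350 to 269090 at day 90 and 236940 to 449650 at day 110. Schwann cell markers rose in 3 of 10 and fell in 3 (30% each), close to the share of all genes in both directions. Their sum was 19780 to 25952 and then 21901 to 34592. For Schwann cells and for smooth muscle and pericytes the sum had the higher median at day 110. A sum follows the brightest genes. The mean of the log2 values had a median of 9.938 at day 90 and 9.834 at day 110 for Schwann cells. For smooth muscle and pericytes these were 10.762 and 10.774, and SYNPO2 of that list is also a sarcomere scaffold gene above. The summed red blood cell markers went from between 6429 and 7624.8 to between 3718.2 and 5672.3, with 3 of 9 lower (33.3%) and 1 higher (11.1%). As means of log2 values the ages overlapped for red blood cells (7.177 to 8.04 and 7.15 to 7.805) and for endothelium (10.005 to 10.298 and 9.634 to 10.079). Of 9 adipocyte markers 1 fell and 1 rose, and of 5 lymphocyte markers 1 fell. The part of these cell types in the changes of the matrix, division and regulator genes was not tested.

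Growth factor genes changed less uniformly. MSTN, myostatin, the brake on muscle growth, ranged from 9.96 to 10.43 with a median of 10.29 at day 90, and from 6.81 to 8.60 with a median of 7.68 at day 110. The ages did not overlap, and it fell by 2.56 ± 0.17 (adjusted p = 6.3e-20). Its list, the TGF-beta ligands and their binding proteins, had 7 of 23 lower and 4 higher, with a median of -0.11, close to the share of all genes in both directions. TGFB3 and FSTL1 fell by 1.55 ± 0.11 (adjusted p = 4.4e-18) and 1.41 ± 0.08 (adjusted p = 2.0e-22), whereas FSTL3, a secreted myostatin and activin binder, rose by 1.12 ± 0.15 (adjusted p = 1.9e-09).

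Secreted Wnt antagonists fell in 5 of 8 and rose in none, with a median of -1.47. SFRP4 ranged from 13.65 to 14.30 at day 90 and from 10.11 to 11.25 at day 110, and fell by 3.16 ± 0.17 (adjusted p = 3.8e-23). SFRP2 fell by 1.91 ± 0.12 (adjusted p = 5.2e-21), and SOSTDC1 fell by 2.86 ± 0.37 (adjusted p = 2.0e-09) with a probe well above background on 7 of 9 day 110 arrays. In the IGF system, which drives fetal growth, 5 of 15 genes fell (33.3%, against 26.8% of all genes) and 1 rose, with a median of -0.15. The binding protein IGFBP2 fell by 0.94 ± 0.10 (adjusted p = 1.5e-12) and IGFBP7 by 0.87 ± 0.11 (adjusted p = 3.1e-10).

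Imprinted genes, of which only 1 parental copy is read and many of which act on fetal growth, fell in 11 of 20 and rose in 3, with a median of -0.74. MEST ranged from 12.26 to 12.53 with a median of 12.39 at day 90, and from 9.54 to 10.36 with a median of 9.96 at day 110. It fell by 2.41 ± 0.11 (adjusted p = 6.8e-26) with no overlap. NNAT fell by 2.63 ± 0.32 (adjusted p = 4.5e-10), although 1 of its 2 other probes changed by 0.43. DIRAS3 fell by 2.15 ± 0.23 (adjusted p = 3.7e-12), with a signal well above background on 4 of 9 day 110 arrays, and MAGEL2 by 1.64 ± 0.12 (adjusted p = 1.3e-17). GRB10, an adaptor that restrains insulin and IGF signalling, went the other way, from a range of 12.81 to 13.19 at day 90 to 14.32 to 15.47 at day 110, a rise of 1.82 ± 0.14 (adjusted p = 1.6e-17).

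Most genes tested rose in the lists of the citric acid cycle, fatty acid oxidation, the respiratory chain and the mitochondrial ribosome. All 15 citric acid cycle genes tested rose, with a median of 1.24, and their mean went from between 13.026 and 13.289 at day 90 to between 14.047 and 14.64 at day 110. IDH2 ranged from 14.86 to 15.28 at day 90 and from 16.40 to 17.11 at day 110, a rise of 1.79 ± 0.09 (adjusted p = 1.8e-24). MDH1, the cytosolic malate dehydrogenase that was listed with the cycle, rose by 1.58 ± 0.08 (adjusted p = 6.7e-24). Fatty acid oxidation rose in 21 of 22 genes and fell in none, with a median of 1.28. ACADVL, the very long-chain acyl-CoA dehydrogenase, ranged from 11.15 to 11.57 with a median of 11.37 at day 90, and from 13.28 to 14.40 with a median of 13.67 at day 110, a rise of 2.35 ± 0.12 (adjusted p = 3.7e-24). ECI1, an isomerase for unsaturated fatty acids, rose by 2.28 ± 0.15 (adjusted p = 1.3e-19), and CPT1B, the muscle gate for fatty acid entry into mitochondria, by 1.79 ± 0.12 (adjusted p = 2.7e-19). UCP3, an inner membrane carrier, rose by 1.87 ± 0.24 (adjusted p = 2.1e-09) with a slight overlap of the ages.

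Of 71 nuclear genes of the respiratory chain, 66 rose and 1 fell, with a median of 0.84. COX7A1, the muscle form of a cytochrome oxidase subunit, ranged from 14.53 to 15.22 at day 90 and from 16.58 to 17.15 at day 110, a rise of 1.95 ± 0.11 (adjusted p = 7.8e-23). UQCRFS1, the iron-sulphur protein of complex III, rose by 1.68 ± 0.14 (adjusted p = 2.7e-15). Of 14 mitochondrially encoded genes 8 were called up and none down, with a median of 0.39, and under 75th percentile scaling all 14 were called up, with a median of 0.70. ATP8 rose by 0.79 ± 0.07 (adjusted p = 8.8e-14) and ND5 by 0.56 ± 0.12 (adjusted p = 1.1e-04). Mitochondrial ribosomal proteins rose in 45 of 64 and fell in 2, with a median of 0.46. MRPL38 rose by 1.13 ± 0.22 (adjusted p = 1.6e-05), and MRPL39, with the largest change of the list at 1.34 ± 0.33 (adjusted p = 4.0e-04), was well above background on 1 of 8 and 3 of 9 arrays, so its size is uncertain.

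Upstream regulators of mitochondria rose in part. Of 17 PGC-1 and PPAR regulators 7 rose and 1 fell, with a median of 0.26. PPARGC1A, the coactivator of mitochondrial biogenesis, ranged from 11.38 to 12.06 at day 90 and from 12.51 to 13.36 at day 110, a rise of 1.26 ± 0.10 (adjusted p = 3.0e-17). ESRRA, a nuclear receptor it acts through, rose by 1.69 ± 0.08 (adjusted p = 2.2e-25), and PPARA, a receptor that turns on fatty acid oxidation genes, by 1.21 ± 0.24 (adjusted p = 2.7e-05). RXRG, a partner of nuclear receptors, fell by 2.40 ± 0.21 (adjusted p = 6.8e-15).

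**Figure D2:**
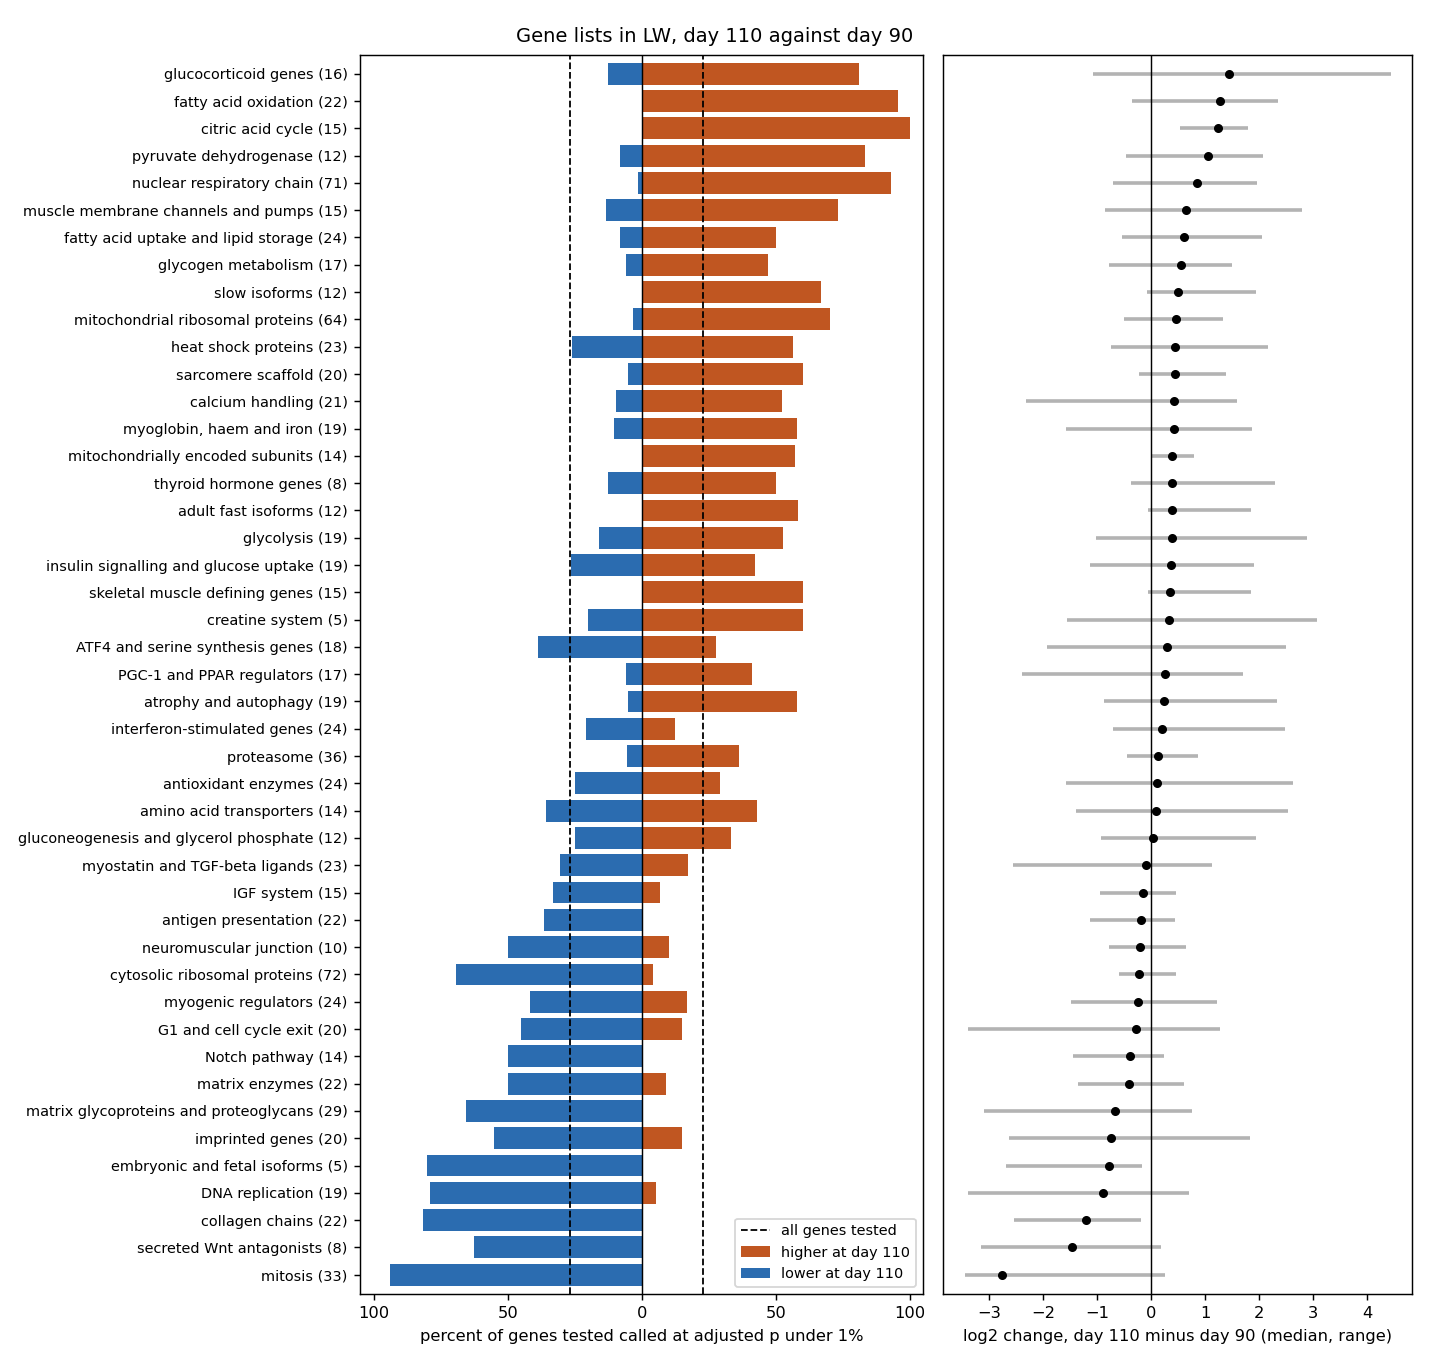
Left, the percent of genes tested in each of 45 gene lists (number tested in brackets) that were called higher (orange) or lower (blue) at day 110 in LW, with dashed lines at the 23.0% and 26.8% of all genes tested. Right, the median (dot) and range (line) of the log2 change of each list, which runs from -2.77 for mitosis to 1.44 for glucocorticoid genes.

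Genes that control the fuel supply of the mitochondria, brakes on it among them, were mostly higher. Of 12 pyruvate dehydrogenase genes 10 rose and 1 fell, with a median of 1.05. PDK4, the kinase that switches the complex off in fasting, ranged from 11.28 to 14.04 at day 90 and from 12.98 to 15.65 at day 110. These ranges overlapped, and the rise was 2.06 ± 0.36 (adjusted p = 2.2e-06). PDHA1, the catalytic subunit, rose by 1.63 ± 0.17 (adjusted p = 9.9e-13). Of 24 genes of fatty acid uptake and lipid storage 12 rose and 2 fell, with a median of 0.60. PLIN5, a lipid droplet protein of oxidative tissue, rose by 2.05 ± 0.16 (adjusted p = 1.5e-16), LPIN1 by 1.95 ± 0.26 (adjusted p = 5.1e-09), ACACB by 1.84 ± 0.15 (adjusted p = 7.2e-16) and lipoprotein lipase, LPL, by 1.59 ± 0.12 (adjusted p = 1.3e-17).

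Glycolysis rose in 10 of 19 genes and fell in 3, with a median of 0.38. PFKFB1, which sets the level of the main activator of glycolysis, ranged from 7.34 to 8.20 with a median of 7.67 at day 90, and from 9.55 to 11.10 with a median of 10.76 at day 110, a rise of 2.88 ± 0.17 (adjusted p = 2.0e-21). HK1, the hexokinase that prevails in fetal tissue, fell by 1.02 ± 0.07 (adjusted p = 1.4e-18). Glycogen genes rose in 8 of 17 and fell in 1, with a median of 0.54 that was 0.34 without day 110 replicate 3. They were led by PPP1R3B, which targets a phosphatase to glycogen, at 1.49 ± 0.16 (adjusted p = 1.6e-11), and by the phosphorylase kinase subunits PHKA1 at 1.43 ± 0.10 (adjusted p = 8.1e-19) and PHKB at 1.38 ± 0.09 (adjusted p = 4.8e-19). Gluconeogenesis and glycerol phosphate genes were divided, with 4 of 12 higher (33.3%), 3 lower (25%) and a median of 0.04. Of all genes, 23.0% were higher and 26.8% lower. GPD2, of the glycerol phosphate shuttle, rose by 1.94 ± 0.12 (adjusted p = 9.7e-21), and FBP1, the liver-type fructose bisphosphatase, fell by 0.93 ± 0.15 (adjusted p = 2.4e-07).

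CKMT2, the mitochondrial creatine kinase of muscle, ranged from 11.18 to 11.76 with a median of 11.43 at day 90, and from 13.99 to 15.27 with a median of 14.69 at day 110. The rise was 3.07 ± 0.15 (adjusted p = 3.3e-25), and all 11 other probes of CKMT2 rose by 3.06 to 3.37. CKB, the brain form found in immature muscle, fell by 1.56 ± 0.13 (adjusted p = 2.1e-15), so that 3 of 5 creatine genes rose and 1 fell. Of 19 genes of insulin signalling and glucose uptake 8 rose and 5 fell, with a median of 0.37. SLC2A4, the insulin-responsive glucose transporter, ranged from 12.34 to 13.10 at day 90 and from 14.47 to 14.98 at day 110, a rise of 1.91 ± 0.14 (adjusted p = 3.7e-18). SLC2A3, a glucose transporter of fetal tissue, also rose, by 1.25 ± 0.22 (adjusted p = 2.0e-06).

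**Figure D3:**
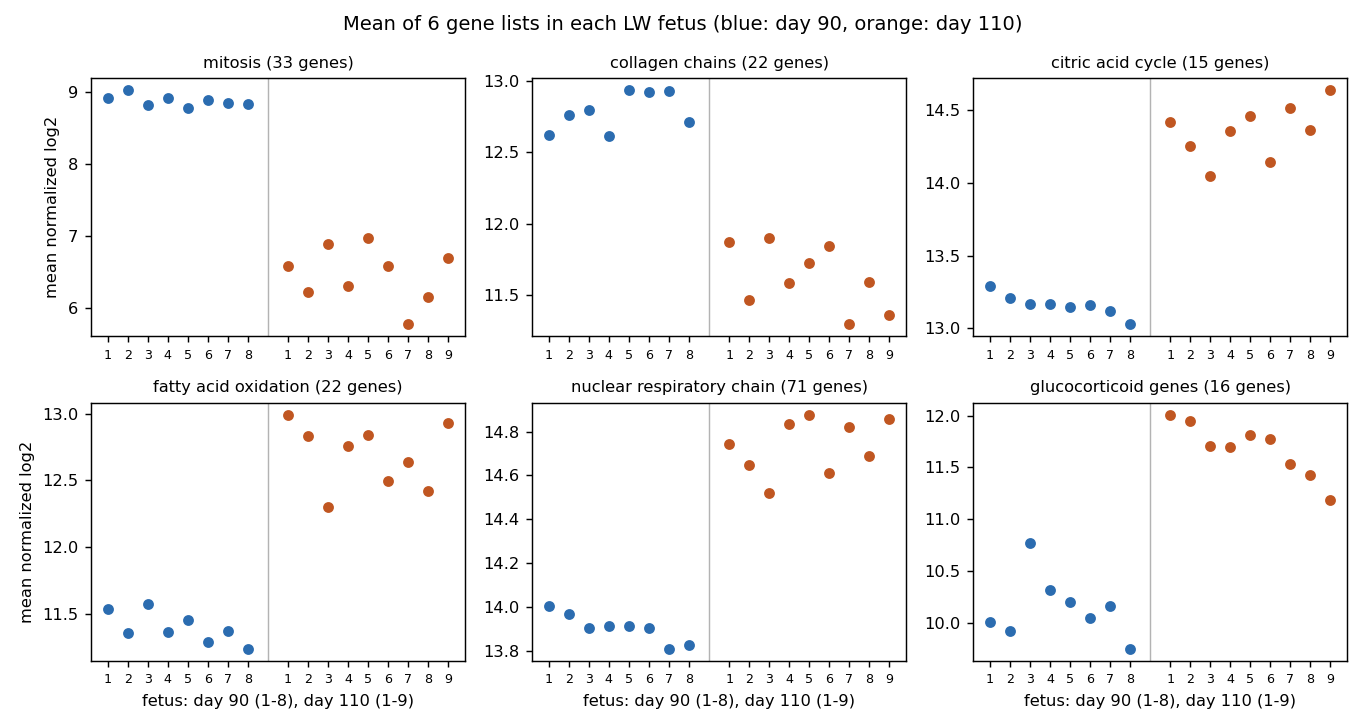
Mean normalized log2 intensity of 6 gene lists (vertical axis) in each LW fetus, in deposited order along the horizontal axis (blue, day 90, orange, day 110). The ages are apart in all 6 lists, and the day 110 fetuses are more spread than the day 90 fetuses in each list but the glucocorticoid genes.

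The list of glucocorticoid genes had the highest median of any list. It holds known response genes and also genes of cortisol metabolism such as HSD11B2, given below. Of 16 tested, 13 rose and 2 fell, with a median of 1.44. FKBP5, a chaperone of the glucocorticoid receptor and a classical target of it, ranged from 5.90 to 7.50 with a median of 6.64 at day 90, and from 10.54 to 11.61 with a median of 11.10 at day 110. The rise was 4.44 ± 0.24 (adjusted p = 3.4e-23), and its 5 other probes rose by 3.36 to 4.45. ZBTB16, a transcriptional repressor, ranged from 7.95 to 9.77 and from 11.91 to 13.01, and rose by 3.60 ± 0.22 (adjusted p = 3.1e-21). KLF9 rose by 2.28 ± 0.20 (adjusted p = 8.9e-15), KLF15 by 1.94 ± 0.19 (adjusted p = 7.9e-13) and CEBPD, with overlapping ages, by 2.0 ± 0.24 (adjusted p = 3.6e-10). MT1A, a metallothionein with close copies in the genome that the probe may also bind, rose by 2.22 ± 0.29 (adjusted p = 1.8e-09).

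The genes that set cortisol exposure inside the cell were picked after their values were seen. HSD11B1, which regenerates cortisol, ranged from 10.40 to 11.12 at day 90 and from 11.88 to 12.56 at day 110, a rise of 1.28 ± 0.17 (adjusted p = 4.2e-09). HSD11B2, which inactivates it, ranged from 6.12 to 6.66 and from 4.51 to 5.76, and fell by 1.08 ± 0.15 (adjusted p = 1.4e-08). The enzymes thus moved in opposite directions, with no overlap of the ages for either. NR3C1, the receptor itself, fell by 0.32 ± 0.07 (adjusted p = 1.6e-04) with overlapping ages, a call lost under 75th percentile scaling (adjusted p = 0.0164). Cortisol was not measured. Of 8 thyroid hormone genes 4 rose and 1 fell. DIO1, which activates thyroid hormone, was well above background on none of 8 day 90 arrays and on 6 of 9 day 110 arrays, and was at least 1.54-fold higher at day 110 (adjusted p = 1.3e-05). The bound sets the day 110 mean against the lowest signal that was well above background on each day 90 array, or the probe's own signal where higher. It holds for the main processing alone, since the log2 change of DIO1 ran from 0.46 to 2.48 under the other settings.

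Protein turnover genes rose in part. Of 19 atrophy and autophagy genes 11 rose and 1 fell, with a median of 0.24. FBXO32, atrogin-1, a ubiquitin ligase of wasting muscle, ranged from 10.96 to 12.79 with a median of 11.71 at day 90, and from 11.53 to 15.53 with a median of 14.52 at day 110. It rose by 2.33 ± 0.36 (adjusted p = 1.5e-07), with 1 or more day 110 fetuses inside the day 90 range. FBXO40 rose by 1.53 ± 0.17 (adjusted p = 1.1e-11), FOXO3, which turns such ligases on, by 1.35 ± 0.11 (adjusted p = 4.5e-16), and TRIM63 by 1.04 ± 0.20 (adjusted p = 1.6e-05). Of 36 proteasome genes 13 rose and 2 fell, with a median of 0.13, and under 75th percentile scaling 24 rose and 1 fell, with a median of 0.35. PSME4, an activator cap, rose by 0.86 ± 0.12 (adjusted p = 4.6e-09).

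Cytosolic ribosomal protein genes fell in 50 of 72 and rose in 3, with a median of -0.23, but under 75th percentile scaling the direction turned, with 7 higher, 1 lower and a median of 0.06. RPL3 and RPS10, with the largest falls of 0.60 ± 0.08 (adjusted p = 5.4e-09) and 0.52 ± 0.06 (adjusted p = 9.2e-11), were not called under that scaling (changes -0.26 and -0.19), and many such genes have processed copies in the genome that a probe may also bind. No other list turned its direction under 75th percentile scaling.

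Stress genes had some of the larger rises. Of 23 heat shock proteins 13 rose and 6 fell, with a median of 0.44. HSPA1A, the inducible Hsp70, which has a near-identical neighbour gene, ranged from 9.13 to 9.77 at day 90 and from 11.22 to 12.19 at day 110, a rise of 2.17 ± 0.15 (adjusted p = 2.2e-18). HSPB7, a small heat shock protein of striated muscle, rose by 2.17 ± 0.10 (adjusted p = 2.5e-25). Antioxidant enzymes rose in 7 of 24 and fell in 6, with a median of 0.11, close to the share of all genes in both directions. GPX3, a secreted glutathione peroxidase, rose by 2.62 ± 0.27 (adjusted p = 1.4e-12) and SOD2, the mitochondrial superoxide dismutase, by 2.35 ± 0.13 (adjusted p = 1.0e-22). Among 19 myoglobin, haem and iron genes 11 rose and 2 fell, with a median of 0.42, and the haem oxygenases moved apart, as HMOX1 fell by 1.59 ± 0.16 (adjusted p = 4.0e-13) while HMOX2 rose by 1.87 ± 0.17 (adjusted p = 4.4e-14).

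Amino acid genes went both ways. Of 18 ATF4 and serine synthesis genes 7 fell (38.9%, against 26.8% of all genes) and 5 rose (27.8%, against 23.0%), with a median of 0.28. PHGDH, the first enzyme of serine synthesis, ranged from 11.83 to 12.68 at day 90 and from 9.43 to 11.47 at day 110, and fell by 1.93 ± 0.26 (adjusted p = 7.3e-09). ATF3, a stress-induced transcription factor, ranged widely, from 2.57 to 6.82 and from 5.76 to 9.85, and rose by 2.49 ± 0.64 (adjusted p = 7.1e-04). Of 14 amino acid transporters 6 rose (42.9%) and 5 fell (35.7%), with a median of 0.09. SLC38A4 rose by 2.54 ± 0.21 (adjusted p = 9.5e-16) and the glutamate transporter SLC1A3 by 2.17 ± 0.20 (adjusted p = 2.8e-14). Among immune genes, 3 of 24 interferon-stimulated genes rose and 5 fell, a share below that of all genes, and 8 of 22 antigen presentation genes fell. The mean of the interferon-stimulated genes lay between 7.634 and 8.084 at day 90, and at day 110 it was 8.706, 8.863 and 9.342 in replicates 3, 5 and 6 and between 7.53 and 8.185 in the others. Those 3 fetuses stood above all others of either age. IFIT1 rose by 2.09 ± 0.28 (adjusted p = 4.3e-09) and ISG15 by 1.75 ± 0.37 (adjusted p = 5.1e-05), while SLA-DQA1, a class II gene with close relatives in the pig, fell by 1.14 ± 0.11 (adjusted p = 1.1e-13).

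The largest changes were taken among named genes that 80% or more of the arrays at each age read well above background, and the rises were not confined to muscle genes. AGT, angiotensinogen, the precursor of angiotensin, ranged from 7.53 to 8.40 with a median of 8.14 at day 90, and from 12.71 to 14.41 with a median of 13.67 at day 110. Every day 110 fetus was far above every day 90 fetus, and the rise was 5.63 ± 0.29 (adjusted p = 3.6e-24), with 5 other probes between 4.25 and 5.82. CA14, a membrane carbonic anhydrase, rose by 4.64 ± 0.26 (adjusted p = 9.9e-23). FKBP5 came next. STEAP4, a metalloreductase, rose by 4.05 ± 0.30, CXCL2, a chemokine, by 3.99 ± 0.34, PROM2 by 3.81 ± 0.37, ACR by 3.78 ± 0.22 and MTMR7, a lipid phosphatase, by 3.66 ± 0.20, and ZBTB16 closed the set. The highest adjusted p among these 9 genes was 2.4e-13, and none of them overlapped between the ages.

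Among the 10 largest falls of genes so measured, which leaves out CDC20 and E2F8, cell cycle genes were joined by C1QTNF3, NOV and KRT19. C1QTNF3, a secreted relative of adiponectin, ranged from 12.58 to 13.79 with a median of 13.40 at day 90, and from 8.99 to 10.27 with a median of 9.51 at day 110, and fell by 3.80 ± 0.25 (adjusted p = 8.8e-20). NOV, a matrix signalling protein, fell by 3.62 ± 0.20 (adjusted p = 2.4e-22). KRT19, a keratin, ranged widely at day 90, from 6.75 to 10.18, and fell by 3.42 ± 0.38 (adjusted p = 1.5e-11). The division genes PCLAF fell by 3.51 ± 0.26 (adjusted p = 1.2e-17) and PIMREG fell by 3.37 ± 0.21 (adjusted p = 1.4e-20), beside UBE2C, KIF23, RRM2, CDK1 and TOP2A above.

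**Figure D4:**
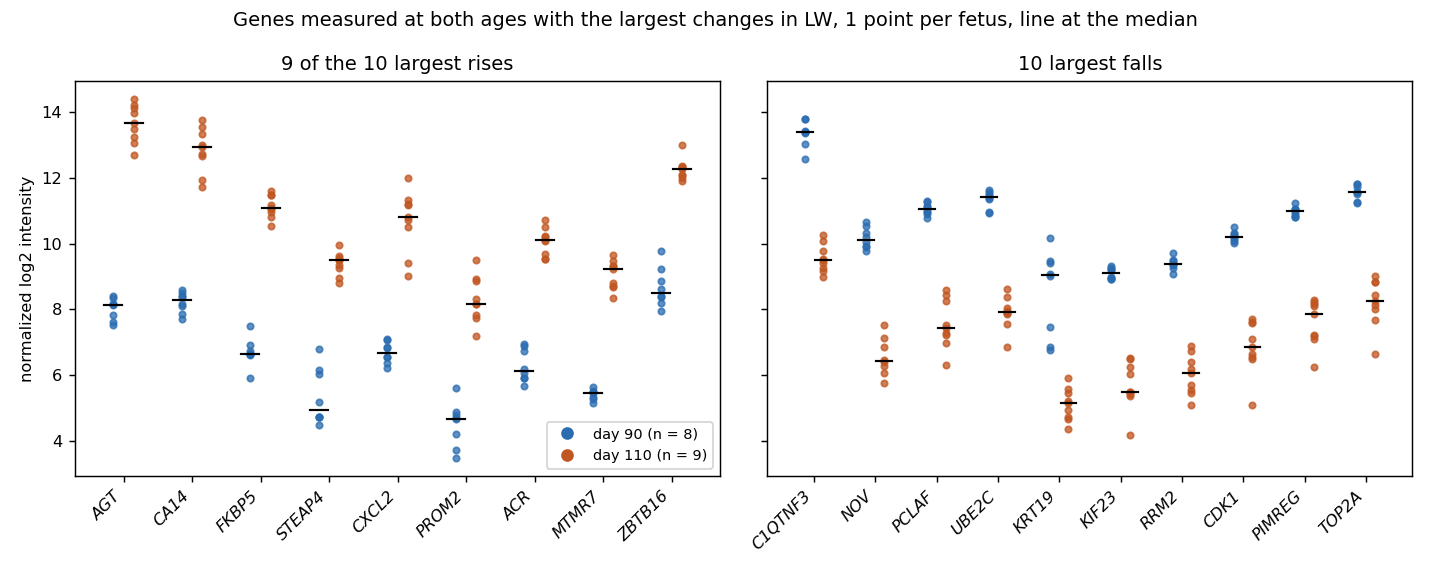
Normalized log2 intensity (vertical axis) of 9 of the 10 genes with the largest rise and the 10 with the largest fall in LW, among genes that 80% or more of the arrays at each age read well above background, with 1 point per fetus (blue, day 90, orange, day 110) and a line at each median. No gene shown overlaps between the ages, and AGT and C1QTNF3 show the widest gaps of medians among rises and falls.

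Some genes were measured at 1 age only. They were picked by that very difference, so the adjusted p-values given with them add no separate support. Those p-values also rest on signals that were not well above background at the other age. At day 110, 3 named genes were well above background on at least 80% of arrays with none at day 90. GNMT, which controls the use of methyl groups, was at least 17.8-fold higher, with 7.75 at day 110 against a measured mean of 2.34 (adjusted p = 6.2e-20). FGL1, a secreted fibrinogen-like protein, was at least 5.0-fold higher (adjusted p = 5.7e-14), and MAFF, a small transcription factor, at least 3.66-fold (adjusted p = 5.6e-07). In the other direction 34 genes were well above background at day 90 and on no array at day 110. The largest bounds were those of CPXM1, a secreted carboxypeptidase-like protein, at least 3.62-fold lower at day 110 (adjusted p = 4.6e-16), EXO1, a repair exonuclease, at least 3.38-fold (adjusted p = 7.2e-16), TRAIP, a replication-linked ubiquitin ligase, at least 3.32-fold (adjusted p = 4.4e-17), CPB2, a carboxypeptidase, at least 3.19-fold (adjusted p = 3.8e-09), and SCN1A, a sodium channel, at least 3.17-fold (adjusted p = 2.9e-10). All these bounds hold for the main processing alone. Under the other settings the log2 change ran from 2.11 to 5.56 for GNMT, 0.88 to 3.33 for FGL1 and 0.66 to 2.64 for MAFF. For CPXM1 it ran from -2.755 to -0.72, and for EXO1 from -3.70 to -0.93.

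Values varied more among the day 110 arrays than among the day 90 arrays. The median SD over 34467 probes was 0.249 at day 110 and 0.190 at day 90, and 70.2% of these probes had the higher SD at day 110. Arrays of the same age correlated with each other at 0.977 to 0.993 at day 110 and 0.981 to 0.994 at day 90, over probes. On the first principal component of the LW arrays, which held 54.8% of the variance and separated the ages, the day 110 fetus nearest to day 90 was replicate 3, at 46.0 on a scale where the others of that age ran from 54.6 to 89.4. Without that fetus 2529 genes rose and 2936 fell, against 2529 and 2946 with it. The second component held 8.06% of the variance and went with the slide at both ages. All arrays on slides 7 and 8 lay between -62.2 and -19.8 on it, and all on slides 1, 2, 5 and 6 were positive. The part of the slides in the spread at day 110 was not tested.

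The age change in LW was then set against that of MS (7 fetuses at day 110 and 8 at day 90), which shared no arrays with it. The changes differed for 920 genes (8.37%) and 2524 probes (5.95%). Of the 10988 genes tested, 560 had a called difference with the more positive change in LW and 360 with the more negative. The direction of these differences depended on the scaling: of the probes called, 57.0% had the more positive change in LW, and under 75th percentile scaling 36.3% of 3162 had. The medians in MS were -3.50 for mitosis and -1.86 for collagen chains, lower than in LW, whereas those of DNA replication (-0.85) and secreted Wnt antagonists (-1.29) were not. The difference was called for 11 of 33 mitosis genes, 7 of 22 collagen chains and 13 of 29 matrix glycoproteins, all with the more positive change in LW. Under 75th percentile scaling these counts were 11, 6 and 9, in the same direction, and without day 110 replicate 3 the mitosis count was 7. Of the 71 nuclear respiratory chain genes, 6 differed, all with the more negative change in LW. Over all genes tested, 360 of 10988 had a called difference in that direction. The count of 6 ranged from 2 with the compared genotypes only to 29 under 75th percentile scaling, and was 3 without day 110 replicate 3. The change was more negative in LW for 8 of 64 mitochondrial ribosomal proteins, against 11 under that scaling, 3 with normexp correction, the median signal or the deposited table, and 4 without day 110 replicate 3 or without day 90 replicate 8. Of the 5 genes tested in the fetal isoform list, 3 had a called positive difference, but only 1 had without day 110 replicate 3. MYH3 fell by 1.31 in LW and fell by 3.59 in MS, a difference of 2.27 ± 0.30 (adjusted p = 4.3e-07).

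Several genes of amino acid metabolism were among those with a more negative change in LW than in MS. ARG2, the mitochondrial arginase, ranged from 7.55 to 8.27 at day 90 in LW, and from 5.51 to 8.72 with a median of 6.30 at day 110. It fell by 1.44 ± 0.39 in LW (adjusted p = 1.3e-03) and changed by 3.93 in MS, and the difference was -5.37 ± 0.57 (adjusted p = 2.9e-09). ASNS, asparagine synthetase, fell by 1.73 in LW and changed by 0.85 in MS, a difference of -2.58 ± 0.38 (adjusted p = 3.6e-06), and PHGDH fell by 1.93 against 0.65 in MS, a difference of -2.58 ± 0.38 (adjusted p = 5.2e-06). PCK2 differed by -2.74 ± 0.40 (adjusted p = 2.7e-06), with a change of 1.94 in MS and of -0.80 in LW, which was not called (adjusted p = 0.0105) but was under 5 of the other settings. MGST2 was higher at day 110 by 3.25 in MS, while its change of 0.79 in LW was not called (adjusted p = 0.13), a difference of -2.45 ± 0.66 (adjusted p = 8.5e-03). These genes and those that follow were read well above background by 80% or more of the arrays in all 4 LW and MS groups. KRT19, which was not, with 5 of 7 MS arrays at day 110, differed by -2.77 ± 0.55 (adjusted p = 4.1e-04).

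Among the genes so measured, the most positive differences belonged to NR4A3, PEG10, MYH3, ENPEP and LSP1. ENPEP, aminopeptidase A, which breaks down angiotensin, ranged from 8.01 to 9.08 at day 90 and from 9.86 to 11.35 at day 110 in LW, a rise of 2.25 ± 0.16 (adjusted p = 4.1e-18), and its change in MS was 0.00, a difference of 2.24 ± 0.24 (adjusted p = 2.9e-09). PEG10, an imprinted gene, fell by 1.08 ± 0.21 in LW (adjusted p = 1.1e-05) and fell by 3.43 in MS, a difference of 2.35 ± 0.30 (adjusted p = 2.3e-07). NR4A3, a nuclear receptor induced by activity, had the most positive difference at 3.11 ± 0.78 (adjusted p = 4.6e-03), but in LW it ranged from 5.91 to 6.67 at day 90 and from 5.51 to 10.32 at day 110, and its change of 1.35 was not called (adjusted p = 0.028), though it was without day 110 replicate 9 (1.62, adjusted p = 8.1e-03). LSP1, an actin-binding protein of leukocytes, differed by 2.12 ± 0.40 (adjusted p = 2e-04), while its rise of 0.86 in LW (adjusted p = 6.2e-03) was not called without day 110 replicate 3 (adjusted p = 0.0161) or day 90 replicate 8 (adjusted p = 0.0106).

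**Figure D5:**
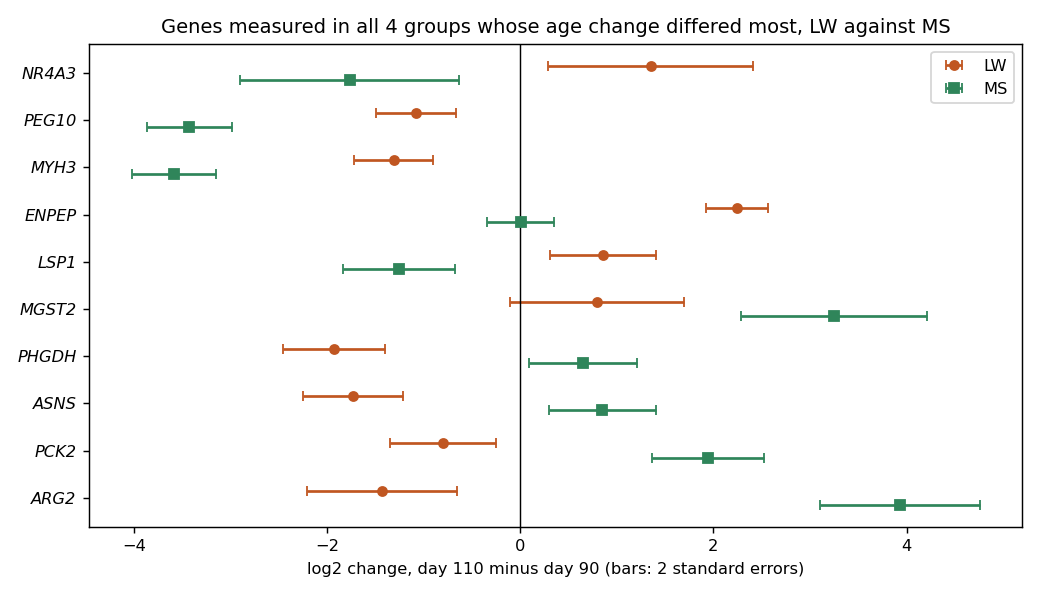
Log2 change from day 90 to day 110 (horizontal axis) in LW (orange circles) and MS (green squares), with bars of 2 standard errors, for the 5 genes with the most positive and the 5 with the most negative difference LW minus MS among those that 80% or more of the arrays in all 4 groups read well above background. ARG2, PCK2, ASNS and PHGDH lie on opposite sides of 0, and ENPEP lies at 0 in MS and at 2.25 in LW.

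Differences from the crosses were fewer. Against LWMS (LW sire and MS sow) the age change in LW differed for 52 genes (0.473%), and against MSLW (MS sire and LW sow, with 5 fetuses at day 110) for 19 genes (0.173%). The test against MSLW rested on the smallest group, and a count from it cannot be set against the count from LWMS. Both counts leaned on single fetuses: of all probes, 141 differed from LWMS (0.332%), against 86 without day 110 replicate 3 and 321 without replicate 9, and 48 differed from MSLW, 35 of them with the more positive change in LW (0.0825% of probes tested), against 111 without replicate 9. ARG2 differed from both crosses, by -4.98 ± 0.56 from LWMS (adjusted p = 1e-07) and by -4.36 ± 0.60 from MSLW (adjusted p = 3.2e-05). ENPEP did so as well, by 1.94 ± 0.23 (adjusted p = 2.9e-07) and 1.58 ± 0.25 (adjusted p = 3.1e-04). PHGDH, ASNS, KRT19 and PEG10 differed from MSLW, and PLN differed from LWMS, where it rose by 0.77 against 1.60 in LW (adjusted p = 9e-03). These comparisons share the LW arrays, so they are not independent of each other.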

How the data were processed

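RNA of 61 fetal longissimus samples was hybridised to 1-colour Agilent arrays. Per the file headers, the authors deposited scanner intensities from Agilent Feature Extraction 10.10.1.1, including a background-corrected processed intensity per spot. Their table of log2 values, deposited with each array's median signal normalized by quantiles as the values themselves show, served as an alternative. Here, non-uniform spots were left out, spots of a probe averaged, intensities quantile normalized and log2 taken. A probe was kept if 80% or more of any group's arrays read it well above background, which left 42436, and 22844 of these had a gene symbol from RefSeq, the array or the study's list, for 10988 genes. The number of arrays limits the precision.

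One limma 3.58.1 model (R 4.3.3) held the 8 group means over 61 arrays, with moderated two-sided tests and Benjamini-Hochberg adjustment over all kept probes, at 1%. The study's random sow effect could not be fitted, since the sow is not in the labels. The code was tested on simulated data. Named genes were those with the largest changes of each list, the 10 largest rises and falls and the 5 largest differences from MS in each direction among genes that 80% or more of the arrays in every group compared read well above background (clone names left out), up to 5 measured at 1 age, and the textbook isoform pairs. For 2 of these genes the values are not reported here. The genes and lists were chosen with earlier results of these data known. Alternatives were 75th percentile scaling, normexp correction (offset 50), the median signal, kept non-uniform spots, the deposited table, other filters, slide as a block, array weights and fewer genotypes, and, chosen after seeing the data, 3 arrays left out in turn and within-slide differences.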

Additional observations from a re-analysis of the deposited data

Results flagged for a closer look

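Of 436 groups examined, for 163 genes and 55 list means in LW at each age, 19 held a fetus whose distance to its nearest neighbour was large for the range of its group, by Dixon's criterion, which chance alone meets in about 1 in 20 groups. At day 90, replicate 8 had the lowest MYH7 (17.31), the lowest ANKRD2 (12.77) and the lowest means of the slow isoforms (15.462) and the mitochondrially encoded subunits (16.473). Replicate 3 at day 90 had the lowest PLN (10.78) and the highest KLF15 (12.12), replicate 6 the highest DIO1 (2.64) and PCK2 (8.41), and replicate 1 the highest mean of the macrophage markers (9.072). At day 110, replicate 7 had the lowest KIF23 (4.17) and CDK1 (5.10) and the highest MEF2D (7.10). Replicate 9 had the highest ARG2 (8.72), the lowest PEG10 (13.80) and the lowest mean of the IGF system (11.042). Replicate 1 had the highest ZBTB16 (13.01) and HSD11B1 (12.56), replicate 2 the highest PSME4 (12.06) and replicate 3 the lowest IDH2 (16.40).

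The age change of 44 named genes differed between LW and MS by the test of the difference itself, with adjusted p of at most 0.0097 and SE of 0.10 to 0.78. Differences in log2 change, LW minus MS, follow each gene in brackets. Among genes of division, the difference was positive for KIF23 (1.90), PCLAF (1.47), TOP2A (1.28) and CDK6 (0.49). Among matrix genes it was positive for COL1A2 (1.18), VCAN (0.96), POSTN (1.02), COL21A1 (0.90), SERPINH1 (0.88) and MMP14 (0.72), and among growth factor genes for TGFB3 (0.80), FSTL1 (0.68) and IGFBP7 (0.58). Fetal, regulator and imprinted genes with a positive difference were MYH3 (2.27), PEG10 (2.35), DLK1 (1.89), MYMK (1.87), HES6 (0.99), HEY2 (0.78), NCAM1 (0.72) and MEST (0.60). Other positive differences belonged to NR4A3 (3.11), ENPEP (2.24), LSP1 (2.12), SLC2A3 (1.25), HSPA1A (1.07), ATP2A1 (0.45) and TCAP (0.44). Negative differences among amino acid and related genes were those of ARG2 (-5.37), PCK2 (-2.74), ASNS (-2.58), PHGDH (-2.58) and SLC1A3 (-1.15), and among mitochondrial and lipid genes those of ECI1 (-0.88), ND5 (-0.71), MDH1 (-0.52), ATP8 (-0.40) and ACACB (-0.85). The others were KRT19 (-2.77), MGST2 (-2.45), PAX7 (-1.14), CHRNE (-0.95), PYGM (-0.93) and TPM3 (-0.43).

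Against LWMS the change differed for PLN (0.82), ARG2 (-4.98) and ENPEP (1.94). Against MSLW it differed for PHGDH (-2.35), ASNS (-1.98), ARG2 (-4.36), KRT19 (-2.82), PEG10 (1.54) and ENPEP (1.58). No cause of these differences was tested.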

How the results depend on the processing

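The count of probes called in LW stayed between 15990 and 20728 under all alternatives, against 19230, and the count that differed from MS between 2014 and 3736, against 2524. For the 163 genes examined, 2224 of 2252 values kept their direction and their side of the threshold, 22 lost the call, 6 gained it and none reversed, and 152 genes kept both under every alternative that gave them a value. Not every gene had one with probes well above background on all arrays, where 132 kept both. The genes that changed were NCAM1, MYH2, CHRNE, RPL3, RPS10, ARG2 (adjusted p = 0.0201 with normexp), NR4A3, LSP1, PCK2, NR3C1 and PAX7.

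The count that differed from LWMS, 141, was 84 with no filter, 237 with slide as a block, 222 with array weights and 86 to 321 with an array left out. The count that differed from MSLW, 48, was 25 with the compared genotypes only and 36 to 111 with an array left out. List medians kept within the spread between fetuses in 541 of 585 values. With 75th percentile scaling, which shifted the change of the brightest 20% of genes by a median of 0.24, medians were 0.63 for skeletal muscle defining genes, 0.61 for adult fast isoforms, 0.81 for slow isoforms, 0.75 for sarcomere scaffold, -0.94 for collagen chains, -0.052 for the IGF system, 0.55 for glycolysis, 0.17 for gluconeogenesis, 1.27 for pyruvate dehydrogenase, 1.57 for the citric acid cycle, 1.47 for fatty acid oxidation, 1.17 for the nuclear and 0.70 for the mitochondrially encoded respiratory chain, 0.61 for creatine, 0.86 for channels and pumps, 1.74 for glucocorticoid genes, 0.43 for atrophy, 0.35 for proteasome, 0.058 for cytosolic and 0.58 for mitochondrial ribosomal proteins, 0.76 for heat shock proteins, 0.21 for antioxidants, 0.51 for haem and iron and -0.45 for imprinted genes. With normexp they were -0.46 for fetal isoforms, -1.77 for mitosis, -0.72 for DNA replication, -0.88 for Wnt antagonists, 0.17 for PGC-1 and PPAR regulators, 0.44 for lipid storage, 0.20 for insulin signalling, 0.55 for channels and pumps and 0.12 for thyroid genes. The median signal and the deposited table gave -2.18 and -2.16 for mitosis, -0.77 and -0.77 for DNA replication and -1.02 and -1.01 for Wnt antagonists. Kept non-uniform spots gave 0.27 for lipid storage. With probes well above background on all arrays, the median was 0.46 for lipid storage, -0.0395 for thyroid genes and 0.42 for amino acid transporters, over fewer genes. With an array left out, glycogen was 0.34 to 0.54 and gluconeogenesis -0.03 to 0.05. The causes were not tested.

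No paired analysis was possible because the labels give no replicate number or sow that ties fetuses of different ages. Slides tie arrays of both ages but not animals, and slide entered as a block and through within-slide differences. Dim probes, such as those of MRPL39 and DIO1, limit what can be said of the size of their changes.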
